A study of Mus musculus with 6 samples.

Results

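The expression of 10 antioxidant and metallothionein genes was examined in activated cardiac fibroblasts from pressure-overloaded mouse hearts. The genes are *Mt1*, *Mt2*, *Hmox1*, *Nqo1*, *Txnrd1*, *Gclc*, *Gclm*, *Srxn1*, *Sod2* and *Sod3*, and they were taken by gene symbol from a table of 28987 genes. All 10 were present, and all 10 were among the 15109 genes that passed the filter for testing (the linear values had to average 1 or more). The cells were EGFP+ cells flow-sorted from the ventricles 4 weeks after TAC (transverse aortic constriction), an operation that narrows the aorta and overloads the ventricle with pressure. There were 3 control libraries and 3 libraries labelled Hsp47-deleted. The mice of both groups carried a tamoxifen-activated Cre recombinase (MerCreMer) knocked in at the *Postn* locus and an eGFP reporter at *Rosa26*. Only the mice of the Hsp47-deleted group also carried loxP-targeted *Hsp47*. All mice underwent TAC, at an age of 8 to 10 weeks by the labels. All of them received tamoxifen, which the labels give as paired intraperitoneal injections of 100 mg/kg and chow at 40 mg/kg. The study's methods give other tamoxifen doses. Cre is thus made only where *Postn* is expressed, and no mouse without TAC is part of the comparison. *Hsp47* (gene symbol *Serpinh1*) encodes a collagen chaperone of the endoplasmic reticulum.

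Most of these genes are textbook targets of NRF2, a transcription factor that KEAP1 holds at low levels until oxidants or electrophiles release it. NRF2 then pairs with a small MAF protein on antioxidant response elements, sites that the repressor BACH1 occupies until heme displaces it. *Mt1* and *Mt2* encode metallothioneins, small cysteine-rich proteins that bind zinc and copper, and their promoters carry metal response elements read by the zinc sensor MTF1. The superoxide dismutases turn superoxide into hydrogen peroxide, *Sod2* in mitochondria and *Sod3* outside the cell.

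Promoter sequence was matched for 7 of the 10 genes, in 9 windows of 240 bases that end 10 bases before the RefSeq start (GRCm38.p6). *Hmox1*, *Gclc* and *Sod3* had no entry. Shown here are the windows of the 2 metallothionein genes and of *Srxn1* and *Gclm*, 2 NRF2 enzyme genes with an antioxidant core. The metallothionein and NRF2 enzyme genes followed different patterns over the libraries, and a link of these patterns to the sequences was not tested. Capitals mark matches, on either strand, to the antioxidant response core (TGACNNNGC or TGAGNNNGC) or to the metal response core (TGCACNC or TGCGCNC). All 4 are on the + strand of the genome: *Mt2* at chr8:94172368-94172607, *Mt1* at chr8:94178839-94179078, *Srxn1* at chr2:152105274-152105513 and *Gclm* at chr3:122245307-122245546.
Mt2: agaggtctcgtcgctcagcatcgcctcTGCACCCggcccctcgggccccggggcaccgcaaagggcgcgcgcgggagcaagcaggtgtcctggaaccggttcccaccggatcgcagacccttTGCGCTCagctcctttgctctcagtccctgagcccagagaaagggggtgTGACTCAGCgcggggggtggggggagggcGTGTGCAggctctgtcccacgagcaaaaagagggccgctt
Mt1: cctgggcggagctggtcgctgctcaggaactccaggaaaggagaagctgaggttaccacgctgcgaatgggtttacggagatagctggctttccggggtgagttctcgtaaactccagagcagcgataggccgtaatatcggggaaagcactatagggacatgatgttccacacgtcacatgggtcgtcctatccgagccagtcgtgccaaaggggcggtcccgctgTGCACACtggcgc
Srxn1: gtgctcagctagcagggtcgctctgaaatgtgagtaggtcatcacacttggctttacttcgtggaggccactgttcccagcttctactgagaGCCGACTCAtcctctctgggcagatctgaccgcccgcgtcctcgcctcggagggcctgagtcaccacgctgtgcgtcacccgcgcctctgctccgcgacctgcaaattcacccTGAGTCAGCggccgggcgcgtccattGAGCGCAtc
Gclm: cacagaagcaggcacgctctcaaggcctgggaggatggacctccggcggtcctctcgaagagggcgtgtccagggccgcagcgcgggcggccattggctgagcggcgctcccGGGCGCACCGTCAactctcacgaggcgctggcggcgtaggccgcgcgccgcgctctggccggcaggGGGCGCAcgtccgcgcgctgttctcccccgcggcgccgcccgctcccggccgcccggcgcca

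The *Mt2* window held 3 metal response cores, at 223, 128 and 50 bases before the start (counted from the left end of each match), and 1 antioxidant response core, TGACTCAGC, at 79 bases. The *Mt1* window held 1 metal response core, at 23 bases, and 0 antioxidant cores. In *Srxn1*, 2 antioxidant cores stood 158 and 45 bases before the start, with 1 metal core at 19 bases. In *Gclm*, 1 antioxidant core at 134 bases, on the other strand, overlapped 1 of the 2 metal cores, which stood at 138 and 72 bases. Among the 3 *Txnrd1* windows, 1 held 1 antioxidant core, and the *Nqo1* and *Sod2* windows held neither. Of 32851 promoter windows of the same length, 22.0% held an antioxidant core and 20.4% a metal core, so that such matches are common, and a match says nothing about binding in these cells. Sequence outside the windows was not searched, so a missing match does not mean that a gene lacks such elements.

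The libraries were first compared as a whole. Controls 3 and 4 came from one sequencing run by the labels (here the first run), and control 2 came from another (the second run) together with all 3 Hsp47-deleted libraries. Mitochondrial transcripts took 23.5% to 29.4% of the summed linear values in the controls and 4.7% to 7.23% in the Hsp47-deleted libraries. The median log2 value of GC-rich genes minus that of GC-poor genes (highest against lowest quartile, each gene taken relative to its mean over the libraries) was -0.57 and -0.72 in controls 3 and 4, 0.11 in Hsp47-deleted 3 and 0.34 to 0.50 in the other 3 libraries. *Serpinh1*, the targeted gene, was at log2 values of 7.60, 6.28 and 6.10 in controls 2, 3 and 4 and at 6.87, 6.67 and 6.66 in Hsp47-deleted 1, 2 and 3. With a log2 fold change of 0.072 (limma adjusted p = 0.947) it was not lower than in the controls, although the mean of the libraries labelled Hsp47-deleted lay 0.87 below control 2. The study reported by Western blot that Hsp47 protein was efficiently lost from sorted EGFP+ cells of this genotype. The values here are RNA per gene, whereas the loxP sites target an exon, so the measures are not alike. *Postn*, the locus that carries the Cre in both groups, was at 6.12, 5.87 and 5.86 in the controls and at 10.22, 10.50 and 10.36 in the Hsp47-deleted libraries (log2 fold change 4.41, SE 0.275, limma adjusted p = 0.00337), without overlap and 4.24 above control 2. Summed fibroblast markers, with *Postn* itself and collagen genes among them, ran from 9840 to 13100 in the controls. They ran from 15400 to 17000 in Hsp47-deleted 1 and 2, with 15300 in Hsp47-deleted 3. Leukocyte markers summed to 148, 46 and 87.2 in controls 2, 3 and 4 and to 150, 181 and 151 in Hsp47-deleted 1, 2 and 3. *Ptprc*, the pan-leukocyte marker, was listed at 0 throughout. Of 12 tested leukocyte markers, 2 were higher at an unadjusted limma p under 0.05, against 14.5% of all tested genes. The count was 3 of 12 for fibroblast, 2 of 12 for endothelial, 3 of 11 for cardiomyocyte and 1 of 8 for mural cell markers.

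Both metallothionein transcripts were higher on average in the Hsp47-deleted libraries, and neither passed the adjusted test. *Mt1* (chr8:94179082-94180327) was at 8.95, 8.16 and 7.69 in controls 2, 3 and 4 and at 8.92, 9.50 and 9.20 in Hsp47-deleted 1, 2 and 3, as log2(value + 1). Control 2 was above Hsp47-deleted 1, so the groups overlapped. The group means were 8.27 ± 0.64 and 9.21 ± 0.29 (SD, n = 3 each), a log2 fold change of 0.94 (SE 0.394, limma adjusted p = 0.323). Against control 2, the only control of the same run, the difference was 0.25.

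*Mt2* (chr8:94172664-94173568) was at 10.13, 10.23 and 10.12 in the controls and at 10.35, 11.36 and 12.11 in the Hsp47-deleted libraries. All 3 of the latter lay above all 3 controls, Hsp47-deleted 1 only narrowly. The controls spanned 1.08-fold on the linear scale and the Hsp47-deleted libraries 3.38-fold. The log2 fold change was 1.12 (SE 0.470, limma adjusted p = 0.323), and it was 1.15 against control 2 alone. Without Hsp47-deleted 3 the *Mt2* value fell to 0.70 (limma adjusted p = 0.448). Once each library had been freed of its trends with GC content and length, *Mt2* was at 10.3, 10.8 and 10.4 in the controls and at 10.1, 11.1 and 11.9 in the Hsp47-deleted libraries, and the groups overlapped. The mitochondrial share differed by label without overlap between the groups, unlike *Mt1*, and its part in the metallothionein values was not tested. With the mitochondrial genes removed and the rest rescaled, *Mt1* had a log2 fold change of 0.45 (limma adjusted p = 0.686). *Mt2* had 0.63 with that rescaling (limma adjusted p = 0.654). The same rescaling lowered the table's median from 0.355 to -0.0474, so the fall was not particular to *Mt1* and *Mt2*. Over all alternatives the limma adjusted p ran from 0.0254 to 0.851 for *Mt1* and from 0.148 to 0.791 for *Mt2*.

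**Figure D1:**
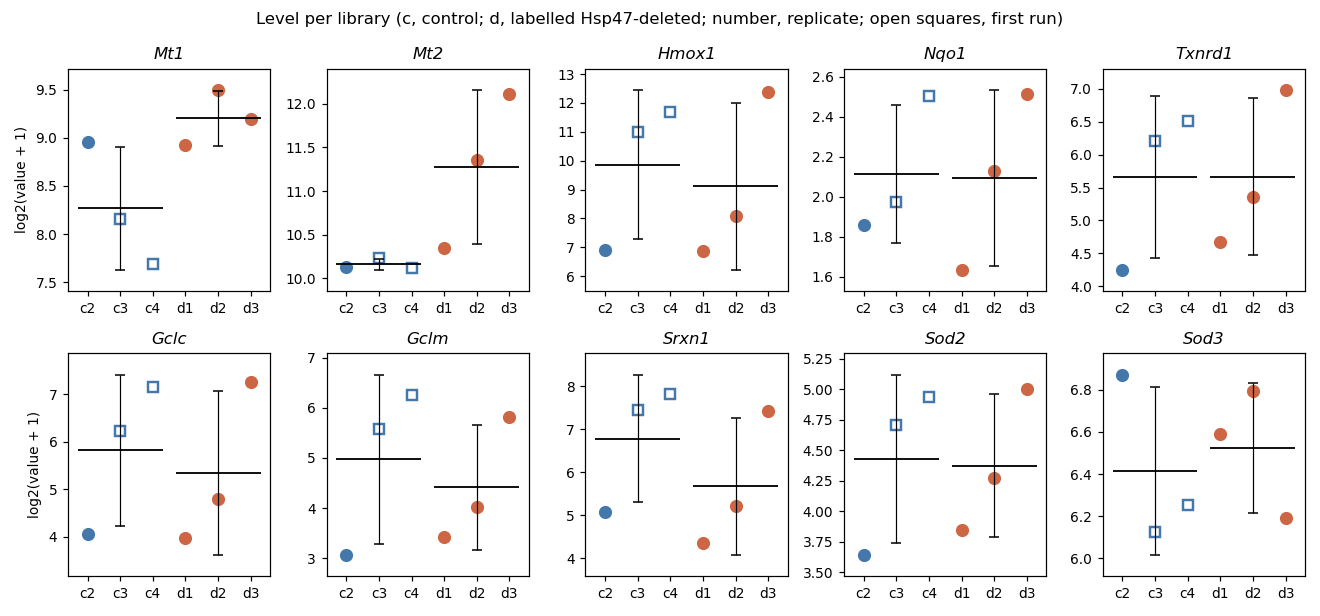
Each panel plots 1 gene, with the 6 libraries on the x axis and log2(value + 1) on the y axis, which does not start at 0 and differs between panels. Filled circles are second-run and open squares first-run libraries, blue for control and orange for Hsp47-deleted, and black lines with bars give the group mean ± SD (n = 3). *Hmox1*, *Txnrd1*, *Gclc*, *Gclm*, *Srxn1* and *Sod2* are highest in controls 3 and 4 and Hsp47-deleted 3.

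*Hmox1* (chr8:75093621-75100589), which encodes the heme oxygenase that breaks heme down to biliverdin, iron and carbon monoxide, varied most of the 10 genes. Its linear values were 119, 2040 and 3300 in controls 2, 3 and 4 and 117, 271 and 5370 in Hsp47-deleted 1, 2 and 3. The highest and the lowest library were both Hsp47-deleted, and they differed 46.1-fold, while the controls spanned 27.7-fold. On the log2 scale the range was 5.51, which 114 of the 15109 tested genes (0.755%) reached. The groups overlapped entirely, with means of 9.86 ± 2.58 and 9.12 ± 2.90 (SD, n = 3 each) and a log2 fold change of -0.75 (SE 1.63, 95% interval -4.52 to 3.02, limma adjusted p = 0.840). An effect of several log2 units in either direction lies within this interval.

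*Gclc* and *Gclm* encode the catalytic and the modifier subunit of glutamate-cysteine ligase, the enzyme of the first step of glutathione synthesis. *Gclc* (chr9:77754535-77794485) was at log2 values of 4.07, 6.22 and 7.16 in the controls and at 3.97, 4.79 and 7.26 in the Hsp47-deleted libraries. *Gclm* (chr3:122245557-122270732) was at 3.08, 5.59 and 6.26 in the controls and at 3.42, 4.03 and 5.81 in the Hsp47-deleted libraries. Both subunits were low in control 2 and Hsp47-deleted 1, intermediate in Hsp47-deleted 2 and high in the other 3 libraries, with 10.4-fold and 10.2-fold between the highest and the lowest library. The log2 fold changes were -0.47 for *Gclc* (SE 0.998, limma adjusted p = 0.834) and -0.56 for *Gclm* (SE 0.900, limma adjusted p = 0.779).

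*Txnrd1* encodes the cytosolic thioredoxin reductase, and *Srxn1* encodes sulfiredoxin, which reduces overoxidized peroxiredoxins. *Txnrd1* (chr10:82833951-82897712) was at 4.25, 6.22 and 6.52 in the controls and at 4.67, 5.35 and 6.98 in the Hsp47-deleted libraries, a 6.95-fold span. *Srxn1* (chr2:152105516-152111376) was at 5.09, 7.44 and 7.82 in the controls and at 4.35, 5.23 and 7.43 in the Hsp47-deleted libraries, an 11.6-fold span. Both repeated the order of the glutamate-cysteine ligase subunits in that control 2 and Hsp47-deleted 1 and 2 were the 3 lowest. *Srxn1* had the largest mean difference between the groups of the NRF2 enzymes, a log2 fold change of -1.11 (SE 0.932, limma adjusted p = 0.567), and *Txnrd1* had 0.0072 (SE 0.750, limma adjusted p = 0.997). The *Srxn1* value rested on single libraries, at -1.99 without Hsp47-deleted 3 (limma adjusted p = 0.386), -1.96 without control 2 (limma adjusted p = 0.130) and -0.45 without Hsp47-deleted 1 (limma adjusted p = 0.884). *Nqo1* (chr8:107388225-107403206), a quinone reductase often used as an NRF2 readout, was low throughout. Its log2 values were 1.86, 1.98 and 2.51 in the controls and 1.64, 2.13 and 2.51 in the Hsp47-deleted libraries, or 2.11 to 4.71 in the linear unit. The *Nqo1* range of 0.88 was below the median range of 1.45 over all tested genes, and its log2 fold change was -0.022 (SE 0.370, limma adjusted p = 0.982).

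The 2 superoxide dismutases differed in their order over the libraries. *Sod2* (chr17:13006846-13040063) was at 3.64, 4.70 and 4.93 in the controls and at 3.84, 4.28 and 5.00 in the Hsp47-deleted libraries, so it was highest in the same 3 libraries as *Hmox1*. *Sod3* (chr5:52363791-52371418) was at 6.87, 6.12 and 6.25 in the controls and at 6.59, 6.80 and 6.19 in the Hsp47-deleted libraries, and these 3 libraries were its lowest. The log2 fold changes were -0.055 for *Sod2* (SE 0.455, limma adjusted p = 0.962) and 0.11 for *Sod3* (SE 0.328, limma adjusted p = 0.889). A transcript of *Sod2* shared 98.2% identity with one of *Rps6ka2* over 76.6% of its length, so its reads could be split between the genes. Shorter shared stretches were found for *Mt2*, with *Gm45774* (100% identity over 41.5% of the transcript), and for *Gclm*, with *Ppia* (99.6% over 37.0%) and 9 predicted genes (32.0% to 39.0% of the transcript), so the values of these genes are uncertain to that extent.

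Taken by library, 6 of the 10 genes (*Hmox1*, *Txnrd1*, *Gclc*, *Gclm*, *Srxn1* and *Sod2*) were highest in controls 3 and 4 and Hsp47-deleted 3, an order that 11.7% of all tested genes had. A range of at least 2 log2 units over the libraries was found for 5 of them, all but *Sod2*, and for 25.6% of all tested genes. This grouping was noticed in the values and received no test. It crossed the label, since it joined 2 controls of the first run with 1 Hsp47-deleted library of the second run. Controls 3 and 4 were also the libraries with the lowest GC trend, and Hsp47-deleted 3 came next. With the average GC and length trends of each library removed, the same libraries stayed highest for these genes. Corrected *Hmox1* was at 6.94, 11.5 and 12.0 in the controls and at 6.59, 7.79 and 12.2 in the Hsp47-deleted libraries, a range of 5.62. The corrected ranges of *Srxn1*, *Gclc*, *Gclm*, *Txnrd1* and *Sod2* were 4.71, 3.51, 3.05, 2.46 and 1.83. The share of all tested genes with this order was not computed after the removal, and the part of GC content in the grouping was not tested. Summed endothelial markers were 294, 125 and 343 in controls 3 and 4 and Hsp47-deleted 3 and 603 to 841 in the other 3 libraries, and summed cardiomyocyte markers were 62.2 to 203 against 269 to 335. Summed mural cell markers (294, 169 and 129 against 178 to 233) and leukocyte markers (46, 87.2 and 151 against 148 to 181) overlapped between these sets of libraries. The part of these other cells in the pattern was not tested, and fewer cells of a type and less RNA per cell cannot be told apart in sorted bulk samples.

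**Figure D2:**
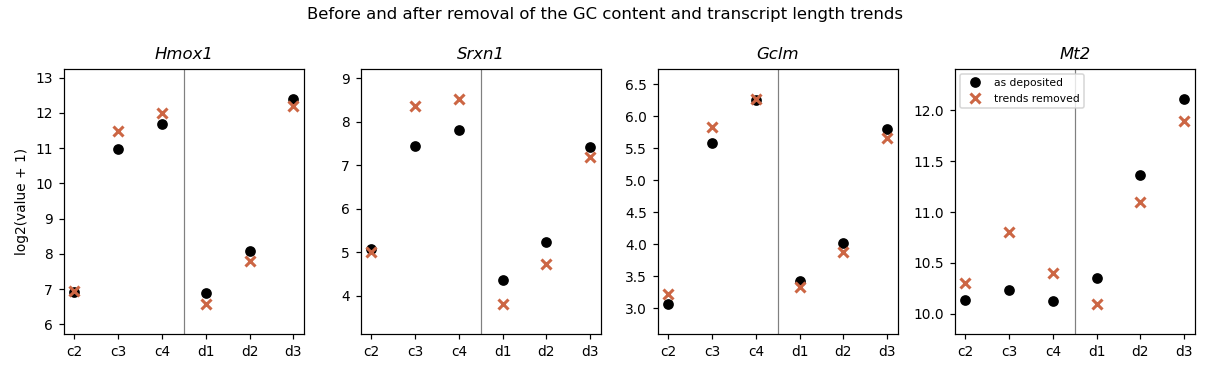
The 4 panels plot log2(value + 1) of *Hmox1*, *Srxn1*, *Gclm* and *Mt2* in each library, as deposited (black circles) and with the GC and length trends removed (orange crosses), with c for control, d for Hsp47-deleted and a grey line between the groups. The high libraries of *Hmox1*, *Srxn1* and *Gclm* stay the same, whereas for *Mt2* the crosses of the groups overlap.

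The genes most like these profiles were then looked up among 6434 genes whose linear values averaged 10 or more, as a description over 6 libraries that share runs and GC trends. The mean of *Nqo1*, *Txnrd1*, *Gclc*, *Gclm* and *Srxn1* was 3.67, 5.49 and 6.05 in the controls and 3.61, 4.31 and 6.0 in the Hsp47-deleted libraries. Closest to it were *Yars2* (Pearson r = 0.9987), *Ywhag* (0.9980), *Btaf1* (0.9975), *Gspt1* (0.9966) and *Kansl1l* (0.9966). The mean of *Mt1* and *Mt2* was 9.54, 9.20 and 8.91 in the controls and 9.64, 10.43 and 10.66 in the Hsp47-deleted libraries. Closest to it were *Ubqln2* (Pearson r = 0.9963), *Cebpb* (0.9921), *Srsf6* (0.985), *Med6* (0.9844) and *Ndel1* (0.9814).

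Between the groups, 0 of the 10 genes were called at an adjusted p under 0.05, where 0.245% of all tested genes were. At an unadjusted limma p under 0.05, 2 genes (*Mt1* and *Mt2*) were higher in the Hsp47-deleted libraries and 0 were lower, against 14.5% and 0.755% of all tested genes. The groups did not overlap for 1 gene (*Mt2*), which was higher, and for 0 that were lower, against 18.3% and 1.5% of all tested genes. These shares are near the background. The median log2 fold change of the 10 genes was -0.039, with 4 higher, and that of all tested genes was 0.36, with 11250 of 15109 higher. Relative to that shift *Mt1* and *Mt2* exceeded the table's median and the other 8 genes lay below it.

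Within the second run alone the picture turned for most of the genes. Compared with control 2, the mean of the Hsp47-deleted libraries was higher for 9 of the 10 genes, the exception being *Sod3*, with a median difference of 0.94 (0.29 over all tested genes, of which 10850 were higher). *Hmox1* was 2.21 higher on the log2 scale (SE 2.12), *Txnrd1* 1.42, *Gclm* 1.34, *Gclc* 1.28, *Sod2* 0.73, *Srxn1* 0.59 and *Nqo1* 0.23. For each of these genes Hsp47-deleted 3 was the highest library of its group. Hsp47-deleted 1 lay below control 2 for *Hmox1* (6.88 against 6.91), *Gclc* (3.97 against 4.07), *Srxn1* (4.35 against 5.09) and *Nqo1* (1.64 against 1.86). It lay above control 2 for *Txnrd1*, *Gclm* and *Sod2*. The smallest limma adjusted p among the 10 genes in that fit was 0.754, for *Mt2*. That fit rests on a single control, which is assumed to vary like the Hsp47-deleted libraries. Without control 2, where run and label coincide, *Mt1* was called (log2 fold change 1.28, limma adjusted p = 0.0254), as were 2768 genes in all.

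**Figure D3:**
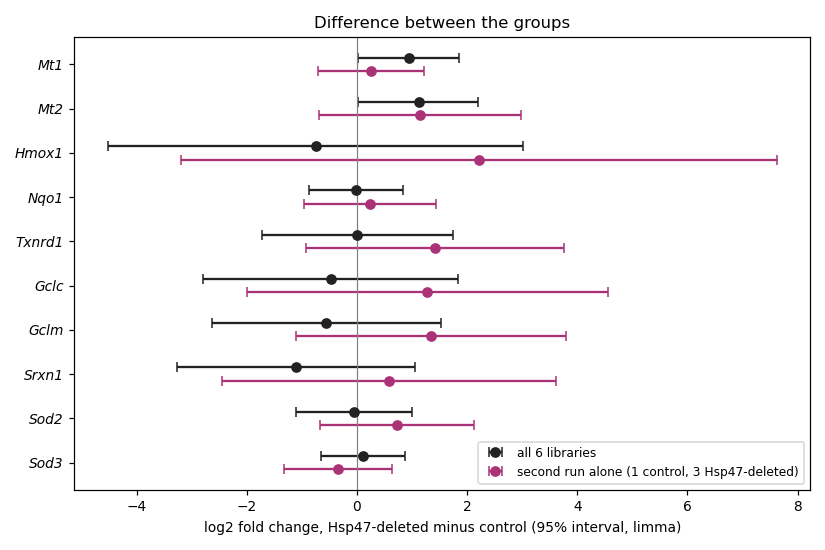
The x axis gives the log2 fold change, Hsp47-deleted minus control, and each row is 1 gene; points are limma estimates and bars their 95% intervals, from all 6 libraries (black) and from the second run alone (purple). For *Hmox1* the estimate moves from -0.75 to 2.21, and only the black bars of *Mt1* and *Mt2* do not reach 0.

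Other genes of these pathways were described from hand-written lists that share some genes. For all lists the background is that of all tested genes: 14.5% higher and 0.755% lower at an unadjusted p under 0.05, a median log2 fold change of 0.36, and 11.7% with the same 3 highest libraries as *Hmox1*. Nothing is read from the list counts beyond this. Of 32 other NRF2 targets, 30 were tested, 0 were called, and 4 were higher and 0 lower at an unadjusted p under 0.05, with a median log2 fold change of 0.54. The smallest p belonged to *Ftl1*, the ferritin light chain, which was at 10.10, 8.58 and 8.59 in the controls and at 10.66, 10.81 and 12.41 in the Hsp47-deleted libraries (log2 fold change 2.20, SE 0.612, limma adjusted p = 0.270). It was followed by *Gsta4*, a glutathione S-transferase (1.48, limma adjusted p = 0.301), which was only 0.26 higher than in control 2. In 6 of the 30 (*Slc7a11*, *Pgd*, *Abcc1*, *Ugdh*, *Esd* and *Sqstm1*) the highest libraries were those of *Hmox1*. *Slc7a11*, the cystine transporter that feeds glutathione synthesis, was at 2.30, 4.21 and 5.55 in the controls and at 2.77, 3.13 and 5.21 in the Hsp47-deleted libraries.

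Among the regulators of NRF2 and of metallothioneins, 19 genes were tested, 0 were called, and 3 were higher and 0 lower at an unadjusted p under 0.05, with a median of 0.45. The smallest p values were those of *Maff*, a small MAF partner (0.97, limma adjusted p = 0.282), and *Foxo3*, a forkhead factor of the stress response (1.18, limma adjusted p = 0.283). Here 6 genes had the libraries of *Hmox1* highest: *Nfe2l2*, *Cul3*, *Bach1*, *Mafg*, *Sqstm1* and *Sesn2*. *Nfe2l2*, which encodes NRF2 itself and is named for its role after its values were seen, was at 7.03, 8.75 and 9.05 in the controls and at 7.03, 7.37 and 8.91 in the Hsp47-deleted libraries. *Keap1* ran differently, at 3.19, 1.31 and 1.59 in the controls and at 3.09, 2.72 and 2.72 in the Hsp47-deleted libraries.

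The glutathione, thioredoxin and peroxide enzymes (33 tested, 0 called) had a median log2 fold change of 0.70, with 6 higher and 0 lower at an unadjusted p under 0.05. The highest libraries of *Hmox1* were shared by 0 of these 33 genes, by 4 of the 28 tested genes of metal and heme handling and by 1 of the 10 tested oxidase genes. The smallest p values were those of the glutathione peroxidases *Gpx1* (2.72, limma adjusted p = 0.282) and *Gpx4* (2.45, limma adjusted p = 0.283). These 2 were only 0.51 and 0.60 higher than in control 2. In metal and heme handling (28 of 31 tested, 0 called) 4 were higher and 0 lower, the median was 0.38, and *Ftl1* and the zinc transporter *Slc39a7* (1.06, limma adjusted p = 0.291) had the smallest p. Of the superoxide-producing oxidases and their subunits (10 of 15 tested, 0 called) 3 were higher and 0 lower, the median was 0.65, and *Noxo1* (1.72, limma adjusted p = 0.282) and *Cyba* (1.96, limma adjusted p = 0.317) had the smallest p. *Cyba* did not exceed control 2 (difference -0.044).

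**Figure D4:**
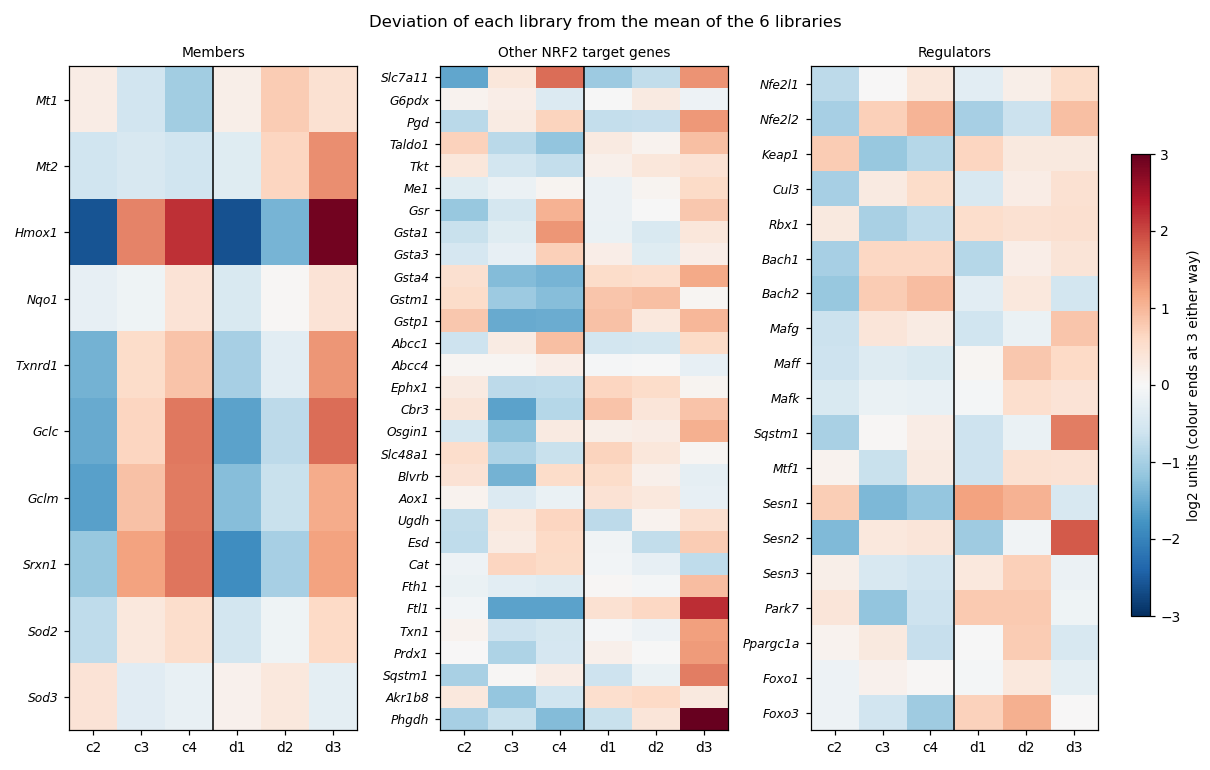
Rows are genes (the 10 members, the 30 other NRF2 targets tested and the 19 regulators), columns are libraries (c, control; d, Hsp47-deleted), and colour gives the log2 deviation from the mean of the 6 libraries, red above and blue below, with the colour ending at 3. Red in c3, c4 and d3 with blue in c2 and d1 marks *Hmox1*, *Gclc*, *Gclm*, *Txnrd1*, *Srxn1*, *Slc7a11* and *Nfe2l2*, whereas *Ftl1* is blue in c3 and c4.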

How the data were processed

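RNA was extracted from sorted EGFP+ cells, amplified and sequenced by the authors. They deposited 1 table of log2(value + 1) per gene and library. The linear unit behind it is not named, and the depth is unknown, so no interval that needs counts is given. The submitters' processing notes list kallisto and mm10 without roles, and the methods name AltAnalyze. Group means and the authors' own comparison in the table were not used.

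Groups were tested on the deposited log2 values, in R 4.3.3 with limma 3.58.1 (lmFit, eBayes with a trend), over 15109 genes with a linear mean of at least 1, without covariate, with Benjamini-Hochberg (BH) adjustment. The labels name separate libraries, and p-values measure the spread between them. With 3 against 3, an exact permutation test cannot give a two-sided p under 0.1. The fit was tested on simulated data with independent noise and no run effect, so that test does not cover the confounding of run with label.

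The members and lists were chosen with earlier results of these data known. The text names all members, the 2 genes with the smallest p of each other list, the 5 genes most like each profile and the label check. Genes named for sharing the libraries of *Hmox1*, *Keap1* and *Slc7a11* were chosen after their values were seen. Coordinates of genes are GRCm38 (GENCODE release M21), and promoter windows are RefSeq. Shared transcript sequence was searched with minimap2 2.31-r1302. No member reached 95% identity over 80% of its length with another gene. Alternatives were sequencing run as a covariate, the second run alone, the replicate number as a block, other filters, pseudocounts, scalings and limma options, and leaving out each library. Removal of GC and length trends (lowess, span 0.3) was added after the data were seen.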

Additional observations from a re-analysis of the deposited data

How the results depend on the processing

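Of 189 values of single members under 19 alternatives, 145 kept their direction and 44 turned. Some of these values could not turn, because other filters and the limma options leave the fold change itself unchanged. The run covariate and the second run alone gave the same fold changes, so the same turns were counted under both. No member passed an adjusted p of 0.05 except *Mt1* without control 2. *Mt1* and *Mt2* kept their direction throughout, from 0.65 to 1.28 and from 0.70 to 1.58 with a library left out. Their sizes fell further under other alternatives. *Mt1* was at 0.25 with run as a covariate and in the second run alone, and at 0.39 under quantile normalization. With GC and length trends removed *Mt1* was at 0.31 and *Mt2* at 0.50. With run as a covariate and in the second run alone, *Gclc* (1.28), *Gclm* (1.34), *Hmox1* (2.21), *Nqo1* (0.23), *Sod2* (0.73), *Srxn1* (0.59) and *Sod3* (-0.35) turned, the median of the members moved to 0.94, and 0 members had an unadjusted p under 0.05. That count was also 0 with no filter, quantile normalization, centring, mitochondrial genes removed, or GC and length trends removed, 1 with robust estimation, and 0 to 2 with a library left out. The scalings moved the median of all genes from 0.36 to between -0.06 and -0.0045. The first run holds only controls, so with run as a covariate the fold change is again the Hsp47-deleted mean minus control 2. The turns in both settings thus follow from setting the first-run controls aside. Control 2 minus the mean of those controls was -2.625 for *Gclc*, -2.85 for *Gclm*, -4.43 for *Hmox1* and -0.38 for *Nqo1*. It was -1.18 for *Sod2*, -2.55 for *Srxn1* and 0.68 for *Sod3*. The cause of these differences between controls, and of the turns under other settings, was not tested.

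The replicate block could be fitted only through the 2 shared numbers (correlation of deviations 0.16 and 0.23), with 1 residual degree of freedom. Under the replicate block 0 genes were called, the values were 0.88 for *Gclc*, 0.59 for *Gclm*, 1.29 for *Hmox1*, 0.40 for *Nqo1*, 0.46 for *Sod2*, 0.065 for *Srxn1* and -0.0056 for *Sod3*, the median was 0.69, and the 2 members at an unadjusted p under 0.05 were *Gclc* and *Txnrd1*.

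*Sod3* and *Txnrd1* turned under quantile normalization (-0.23 and -0.35), centring (-0.31 and -0.41), removal of mitochondrial genes (-0.37 and -0.47) and removal of GC and length trends (-0.30 and -0.28), and *Txnrd1* with a pseudocount of 5 (-0.00028). With 1 library left out, the values ran from -1.44 to 0.21 for *Gclc*, -1.51 to 0.087 for *Gclm*, -2.38 to 0.38 for *Hmox1*, -0.23 to 0.21 for *Nqo1*, -0.45 to 0.21 for *Sod2*, -0.037 to 0.34 for *Sod3*, -0.70 to 0.51 for *Txnrd1* and -1.99 to -0.45 for *Srxn1*, the median of the members from -0.57 to 0.21, and the members called from 0 to 1. Unknown depth limits the low values, *Nqo1* first.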

Other observations

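A few genes of the wider lists stood apart in Hsp47-deleted 3, and they were picked after their values were seen, without a test. *Phgdh*, which encodes the first enzyme of serine synthesis, was at log2 values of 2.85, 3.18 and 2.54 in controls 2, 3 and 4 and at 3.17, 4.20 and 7.11 in Hsp47-deleted 1, 2 and 3. *Sesn2*, a stress-induced sestrin, was at 2.56, 4.20 and 4.25 in the controls and at 2.83, 3.78 and 5.74 in the Hsp47-deleted libraries. *Sqstm1*, the autophagy receptor that binds KEAP1, was at 8.18, 9.20 and 9.37 in the controls and at 8.54, 8.96 and 10.69 in the Hsp47-deleted libraries. All 3 genes were highest in Hsp47-deleted 3.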
